A study of Homo sapiens with 6 samples.

Results

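The genes for the proteins of the spliceosome's small nuclear ribonucleoproteins (snRNPs) were examined in cells given a small interfering RNA against EIF4G2. The group was chosen by name: genes whose symbol begins with SNRP, SF3A, SF3B or PRPF, or with LSM and a number, and whose transcript type in the deposited table includes protein coding. The rule took 47 genes of the 60612 rows of the table, and all 47 passed the filter on low values. Another 69 rows with such a name carry no protein-coding type and are named as pseudogenes. After EIF4G2 silencing, 22 of the 47 genes rose (46.8%, where 15.9% of all tested genes did). Only 1 fell (2.13%, where 17.6% did), and all these changes were less than 1.5-fold.

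Poly(A) RNA was sequenced in 6 libraries, whose cells the labels name as the liver cancer line Hep3B. In 3 libraries, siEIF4G2, the cells had received 50 nM of the small interfering RNA against EIF4G2, and in the other 3, siNC, 50 nM of a control one. EIF4G2, also known as DAP5, is a relative of the translation initiation factor EIF4G1 that lacks the part that binds the cap-binding protein. The labels give no time after transfection and do not say whether replicates were separate cultures, so the spread that p-values are set against may be technical.

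Total counts were 63351653 to 72863628 in siEIF4G2 libraries and 67372193 to 70933933 in siNC libraries, and the 47 genes had between 346 and 52543 counts in each library. EIF4G2 (chr11:10797050-10808929, minus strand) had 178, 180 and 199.8 CPM (counts scaled to library depth) in siEIF4G2 libraries, against 1103, 913 and 998 CPM in siNC libraries, and was 5.41-fold lower (log2 fold change -2.43, SE 0.09, edgeR adjusted p = 0.000207). The liver label was not borne out by the defining markers. Of 11 hepatocyte and hepatoma genes 0 reached 1 FPKM, a level per transcript length, and GPC3, FGB, TTR, AFP, ALB, APOB and APOA1 had 0 counts in all 6 libraries. Summed FPKM over 4 epithelial markers was 339 to 367 in siEIF4G2 libraries and 382 to 388 in siNC libraries, nearly all from KRT8 and KRT18. Summed FPKM over 5 fibroblast markers, of which COL1A1, COL3A1, DCN and LUM reached 1 FPKM, was 98.4 to 100 in siEIF4G2 libraries and 74.3 to 82.5 in siNC libraries. The 4 endothelial markers summed to 0.439 to 0.550 FPKM in siEIF4G2 libraries and 1.34 to 1.42 FPKM in siNC libraries, and the 5 leukocyte markers, with PTPRC and CD3E at 0 and CD68 alone above 1 FPKM, summed to 7.62 to 9.59 FPKM in siEIF4G2 libraries and 11.99 to 14.01 FPKM in siNC libraries. The epithelial, fibroblast, endothelial and leukocyte sums thus differ between the groups beside every result given below, and their part in it was not tested.

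The spliceosome removes introns from precursor mRNA. It is built on each intron from the U1, U2, U4, U5 and U6 snRNPs, each a small RNA with its proteins. Sm proteins form a ring on the U1, U2, U4 and U5 RNAs and LSM2 to LSM8 form a related ring on U6. The SF3A and SF3B complexes belong to the U2 snRNP and hold it on the branch site, and most PRPF proteins belong to the tri-snRNP of U4, U6 and U5 or join at activation. The name rule also takes in relatives that work outside the spliceosome, such as LSM1 in mRNA decay and LSM10 and LSM11 in histone mRNA processing. In bulk libraries, fewer cells of a type and less RNA per cell cannot be told apart.

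Promoter sequences of RefSeq (GRCh38.p14, 250 bases before to 50 after the start) matched 38 of the 47 genes. PRPF3, PRPF39, SNRPD1, SF3B3, LSM14A, LSM6, PRPF4B and LSM1 were among those without one. The genes and the strings searched were chosen with earlier results of these data known. The string CCGGAAG, the core letters of many ETS-family sites, was found on either strand in 17 of the 38 promoters (44.7%), against 20.4% of the promoters of 9375 tested genes and 10.7% of all 27305 promoters. Among promoters of genes that rose it was in 10 of 18, and among the other promoters in 7 of 20. Exon-free stretches upstream of 3 genes that rose are shown 5′ to 3′ on the strand of the gene, because they carry this string, which or whose reverse complement CTTCCGG is in capitals. SNRPA1 encodes a U2 snRNP protein, PRPF6 a tri-snRNP protein and SNRPC a U1 snRNP protein. The SNRPA1 call held in all 6 fits that left out a library, the PRPF6 call in 2 and the SNRPC call in 1. The stretches lie at chr15:101295283-101295418 (minus strand), chr20:63980882-63981131 (plus) and chr6:34757255-34757405 (plus).
SNRPA1: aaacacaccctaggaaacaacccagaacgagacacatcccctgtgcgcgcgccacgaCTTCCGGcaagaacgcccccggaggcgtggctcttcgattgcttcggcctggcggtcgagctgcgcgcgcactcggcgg
PRPF6: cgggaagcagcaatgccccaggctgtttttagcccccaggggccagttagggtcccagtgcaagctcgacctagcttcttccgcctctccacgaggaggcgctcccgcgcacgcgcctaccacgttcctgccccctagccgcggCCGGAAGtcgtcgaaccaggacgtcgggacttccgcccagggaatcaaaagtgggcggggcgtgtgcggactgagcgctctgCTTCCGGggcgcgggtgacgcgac
SNRPC: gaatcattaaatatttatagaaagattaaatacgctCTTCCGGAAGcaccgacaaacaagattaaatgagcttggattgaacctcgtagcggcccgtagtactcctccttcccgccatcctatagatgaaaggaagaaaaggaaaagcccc

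In SNRPC the matches on both strands overlap in a single run, and PRPF6 holds the string at separate places on each strand. Other strings were searched on both strands of the same windows. AAGATGGC (YY1) was in 13.2% of the 38 promoters, against 5.79% of tested genes. CCAAT was in 42.1% against 37.1%, GGGCGG (SP factors) in 60.5% against 71.2%, and the E-box CACGTG in 2.63% against 10.5%. GCATGCGC (NRF1) was in 5.26% against 5.76%, and its longer palindromic form, which holds it, in 2.63% against 2.36%. TATAAA was in 2.63% against 5.49%, ACTACAA (ZNF143) in 7.89% against 4.02%, and a palindrome with TCGCGA at its centre in 2.63% against 0.992%. Of the E2F strings, TTTGGCGC was in 2.63% against 1.16%, TTCGCG in 13.2% against 10.9%, and TTTCGCGC, which holds TTCGCG, in 0% against 1.14%. Over all promoters the shares were 3.03% for AAGATGGC, 35.7% for CCAAT, 44.6% for GGGCGG, 7.43% for CACGTG, 3.27% for GCATGCGC, 1.36% for its longer form, 11.95% for TATAAA, 2.95% for ACTACAA, 0.469% for the palindrome around TCGCGA, 0.659% for TTTGGCGC, 6.15% for TTCGCG and 0.546% for TTTCGCGC. These are matches of letters in a window, and no measurement of binding was made.

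Of the 47 genes, 22 passed an edgeR adjusted p of 0.05 as higher in siEIF4G2 libraries (46.8%, where 15.9% of all 13748 tested genes did) and 1 as lower (2.13%, where 17.6% of all tested genes did). In either direction 23 were called, where 33.4% of all tested genes were, and the other 24 did not pass the threshold. At an unadjusted p under 0.05, 27 were higher and 2 lower, LSM11 among them. The median log2 fold change was 0.18 over the 47 genes and 0.01 over all tested genes. In 26 of the 47 genes all 3 siEIF4G2 values lay above all 3 siNC values, where 25% of tested genes did so, and in 3 they lay below, where 25.6% did so. Among tested genes of 100 to 1000 CPM, 23.4% were called higher and 23.6% lower, and at 10 to 100 CPM the shares were 16.9% and 18.1%. The rises were small, between 1.09-fold and 1.40-fold, with a median log2 fold change of 0.29, against 0.43 for all genes called higher. None of the 47 was called at 1.5-fold or more in either direction. Of all tested genes 4.64% were called higher at that fold, a share that leaves out those called lower. Summed over the 47 genes, the level was 5508, 5752 and 5496 CPM in siEIF4G2 libraries, against 5144, 5074 and 5073 CPM in siNC libraries. Leaving out each library in turn left 14 to 18 genes called higher.

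**Figure D1:**
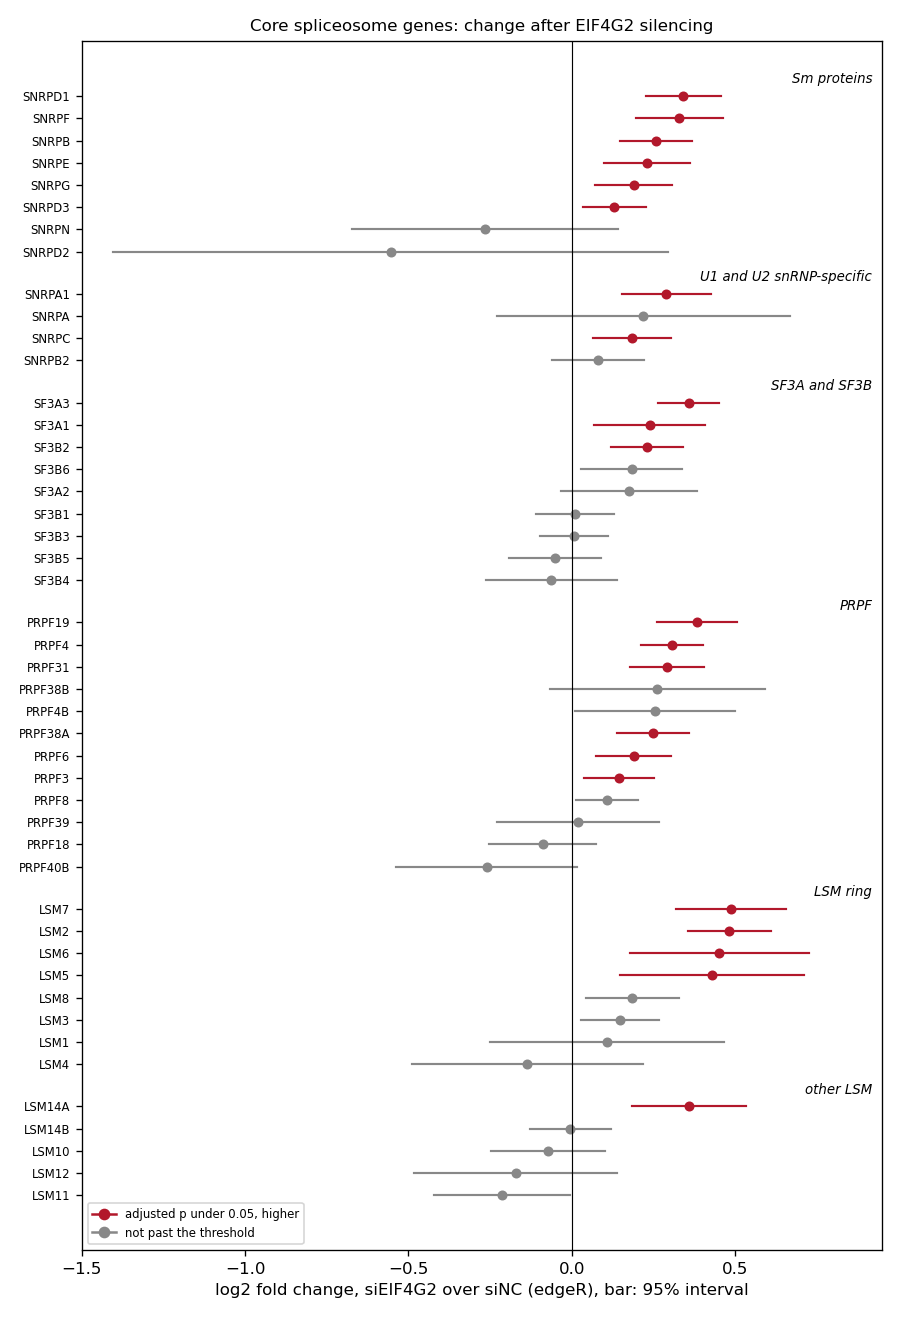
Log2 fold change of 46 of the 47 genes, siEIF4G2 over siNC (x axis), by role (y axis). Points are edgeR estimates and bars 95% intervals, with 22 genes called higher in red, genes not past the threshold in grey, and the wide interval of SNRPD2 spanning -1.40 to 0.30.

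**Figure D2:**
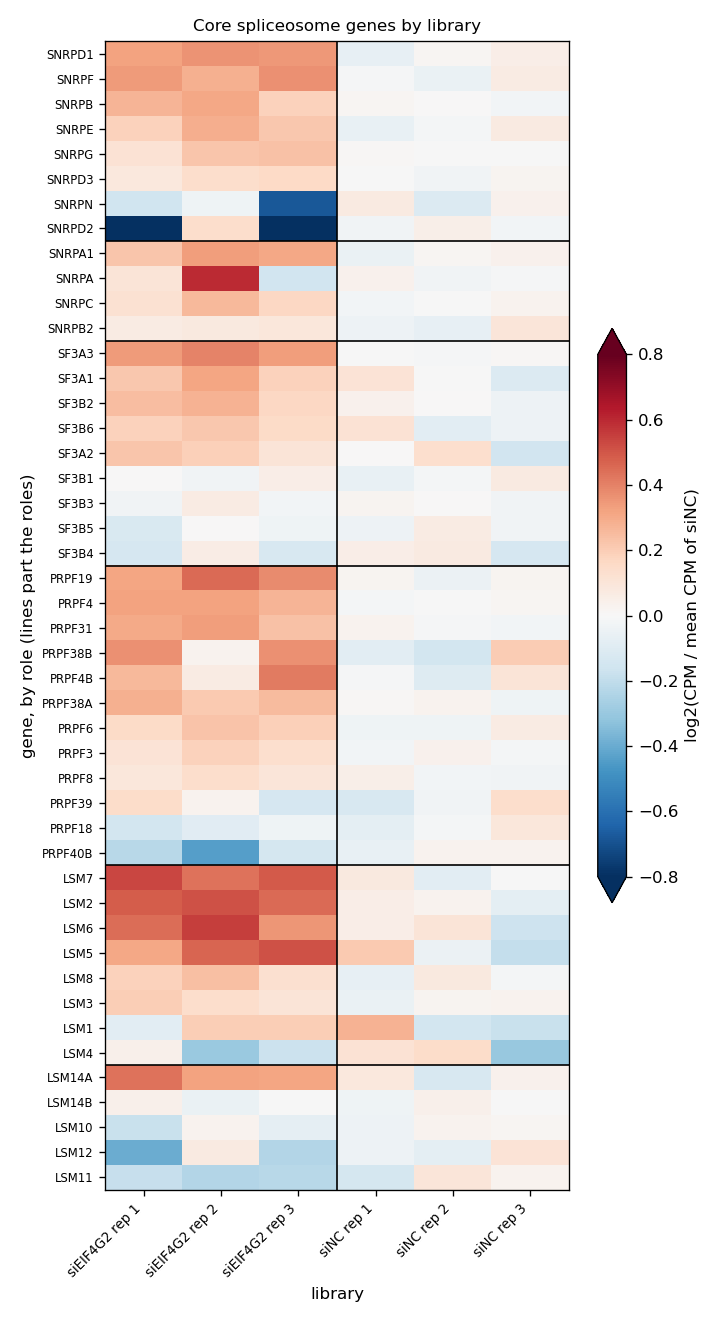
46 of the 47 genes (rows, by role) in each of the 6 libraries (columns, siEIF4G2 left of the line and siNC right of it), coloured by the log2 ratio of its CPM to the mean CPM of siNC. The LSM2, LSM5, LSM6 and LSM7 rows are red in all siEIF4G2 libraries, while SNRPD2 is dark blue in siEIF4G2 replicates 1 and 3 only.

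The Sm proteins form the ring on which the U1, U2, U4 and U5 snRNPs are assembled. Of the 8 Sm genes, 6 rose (75%, where 15.9% of all tested genes did) and 0 fell (where 17.6% did). Their median log2 fold change was 0.21. SNRPD1 had 103, 106 and 105 CPM in siEIF4G2 libraries, against 79.0, 83.6 and 85.8 CPM in siNC libraries. The groups did not overlap, and SNRPD1 was 1.27-fold higher (log2 fold change 0.34, SE 0.05, edgeR adjusted p = 0.0035), the smallest p of the Sm genes. SNRPF had 58.9, 56.6 and 60.1 CPM in siEIF4G2 libraries, against 46.2, 44.8 and 48.7 CPM in siNC libraries. It was 1.26-fold higher, again with no overlap (log2 fold change 0.33, SE 0.05, edgeR adjusted p = 0.00636). The other 4 that rose were SNRPB (log2 fold change 0.26, edgeR adjusted p = 0.00795), SNRPE (0.23, edgeR adjusted p = 0.0212), SNRPG (0.19, edgeR adjusted p = 0.0273) and SNRPD3 (0.13, edgeR adjusted p = 0.0489). The SNRPD3 call was lost whichever library was left out (edgeR adjusted p of 0.056 to 0.134), the SNRPG call in 5 of 6 such fits and the SNRPE call in 4. SNRPD3 shares 21.5% of its 50-base words with other genes, so part of its count could belong to them.

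SNRPD2 and SNRPN were the Sm genes that did not pass. SNRPD2, which pairs with SNRPD1 in the ring, had 62.9, 140 and 55.9 CPM in siEIF4G2 libraries, against 124, 131 and 125 CPM in siNC libraries. Its siEIF4G2 replicate 2 lay above every siNC library while the other siEIF4G2 libraries lay far below them, so the groups overlapped. The log2 fold change was -0.55 with a 95% interval of -1.40 to 0.30 (edgeR adjusted p = 0.27). Without siEIF4G2 replicate 2 it was -1.09 (edgeR adjusted p = 0.00177). SNRPN, a paralog of SNRPB known for expression in neurons and from an imprinted locus, had 46.9, 51.1 and 32.7 CPM in siEIF4G2 libraries, against 54.9, 48.5 and 53.7 CPM in siNC libraries. These overlapped as well, with a log2 fold change of -0.27 (edgeR adjusted p = 0.27), and 25.8% of its 50-base words are shared, mostly with SNURF, which overlaps it on the same strand.

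**Figure D3:**
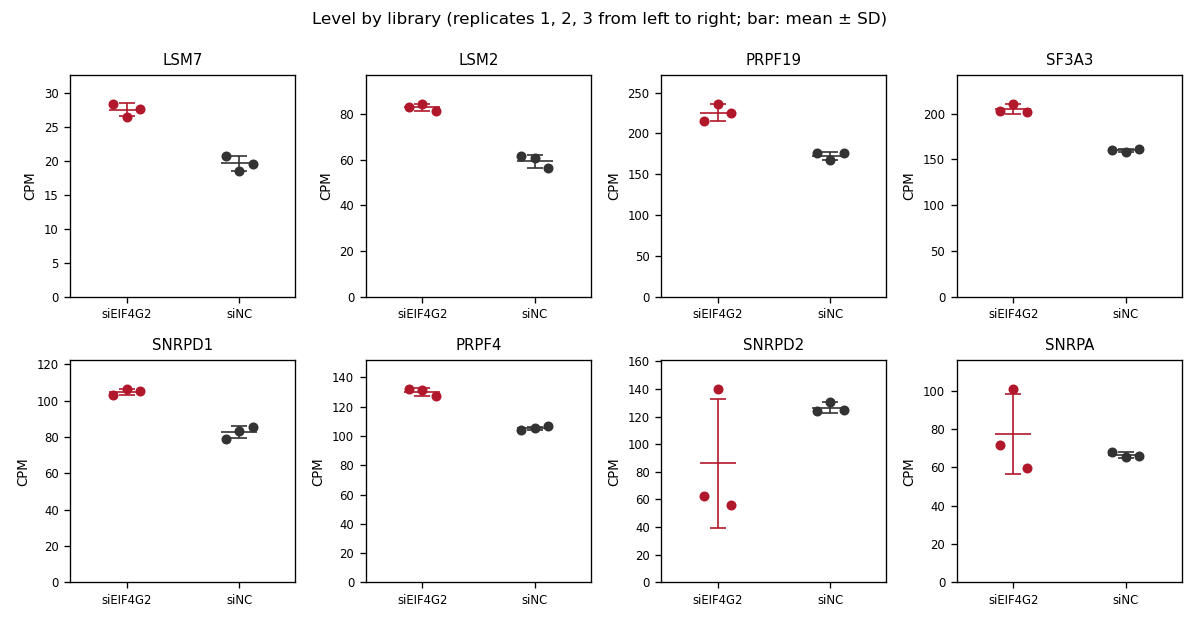
CPM of 8 genes (y axes, from 0) in each siEIF4G2 library (left, red) and each siNC library (right, black), with replicates 1, 2 and 3 drawn from left to right and bars for the mean and SD (n = 3). LSM7, LSM2, PRPF19, SF3A3, SNRPD1 and PRPF4 are higher in every siEIF4G2 library than in any siNC library, while for SNRPD2 and SNRPA siEIF4G2 replicate 2 stands apart, at 140 and 101 CPM.

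Of the 4 genes for proteins particular to U1 or U2, 2 rose (50%, where 15.9% of all tested genes did). None of them fell (where 17.6% did). SNRPA1, which binds the U2 RNA together with SNRPB2, had 46.3, 50.0 and 49.1 CPM in siEIF4G2 libraries, against 38.2, 40.2 and 40.6 CPM in siNC libraries. Every siEIF4G2 value exceeded every siNC value, a 1.22-fold rise (log2 fold change 0.29, SE 0.06, edgeR adjusted p = 0.0109). SNRPC, which lies where U1 meets the 5′ splice site, was 1.14-fold higher, at 152 ± 7.62 CPM in siEIF4G2 libraries and 134 ± 2.38 CPM in siNC libraries (SD, n = 3 each). Its call (log2 fold change 0.18, edgeR adjusted p = 0.0333) held in 1 of 6 fits that left out a library. SNRPB2 had a log2 fold change of 0.08 and did not pass (edgeR adjusted p = 0.329). SNRPA, the U1 protein that binds a stem loop of the U1 RNA, had 71.5, 101 and 59.9 CPM in siEIF4G2 libraries, against 68.2, 65.2 and 66.1 CPM in siNC libraries. The siEIF4G2 values lay on both sides of the siNC values (edgeR adjusted p = 0.405), and the library at 101 CPM is siEIF4G2 replicate 2, the one in which SNRPD2 was high.

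The SF3A and SF3B complexes of the U2 snRNP clamp the branch site. All 3 SF3A genes had positive log2 fold changes and 2 rose (66.7%, where 15.9% of all tested genes did). SF3A3 had 203, 211 and 201 CPM in siEIF4G2 libraries, against 160, 159 and 161 CPM in siNC libraries. With no overlap and the smallest p of the 47 genes, SF3A3 was 1.28-fold higher (log2 fold change 0.36, SE 0.04, edgeR adjusted p = 0.00151). SF3A1 was 1.18-fold higher (edgeR adjusted p = 0.0428, held in 1 of 6 fits that left out a library), and SF3A2 had a log2 fold change of 0.17 (edgeR adjusted p = 0.167). Of the 6 SF3B genes 1 rose (16.7%, near the 15.9% of all tested genes). SF3B2, which contacts the intron beside the branch site, averaged 307 ± 12.1 CPM in siEIF4G2 libraries and 262 ± 6.56 CPM in siNC libraries (SD, n = 3 each; log2 fold change 0.23, edgeR adjusted p = 0.0114).

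The large SF3B scaffolds gave fold changes close to 1. SF3B1, which cradles the branch site and is recurrently mutated in blood cancers, averaged 357 ± 10.1 CPM in siEIF4G2 libraries and 354 ± 17.1 CPM in siNC libraries (SD, n = 3 each). SF3B3 averaged 326 ± 12.1 CPM in siEIF4G2 libraries and 325 ± 6.16 CPM in siNC libraries (SD, n = 3 each). The 95% intervals of their log2 fold changes were -0.11 to 0.13 for SF3B1 and -0.10 to 0.11 for SF3B3. SF3B6, which sits near the branch site adenosine, had a log2 fold change of 0.18 with no overlap between groups (edgeR adjusted p = 0.0716). SF3B4 and SF3B5 had log2 fold changes of -0.06 and -0.05, and their groups overlapped.

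PRPF3, PRPF4, PRPF6, PRPF8 and PRPF31 belong to the U4/U6.U5 tri-snRNP, and 4 of these 5 rose (80%, where 15.9% of all tested genes did). PRPF4, a partner of PRPF3 on the U4/U6 duplex, had 132, 132 and 127 CPM in siEIF4G2 libraries, against 104, 105 and 106 CPM in siNC libraries. Both sets were narrow and far apart, and PRPF4 was 1.24-fold higher (log2 fold change 0.31, SE 0.04, edgeR adjusted p = 0.0026). PRPF31, which binds U4 RNA and whose mutations cause retinitis pigmentosa, had 87.6, 89.8 and 83.7 CPM in siEIF4G2 libraries, against 72.6, 70.8 and 70.0 CPM in siNC libraries. It was 1.22-fold higher with no overlap (log2 fold change 0.29, SE 0.05, edgeR adjusted p = 0.00549). PRPF31 shares 20.1% of its 50-base words with other genes and overlaps TFPT on the opposite strand. PRPF6, a bridge between U5 and U4/U6, had a log2 fold change of 0.19 (edgeR adjusted p = 0.0254, held in 2 of 6 fits that left out a library). PRPF3 had a log2 fold change of 0.14 (edgeR adjusted p = 0.0492, held in 0 of 6). PRPF8, the scaffold of the catalytic centre, averaged 715 ± 13.4 CPM in siEIF4G2 libraries and 664 ± 19.9 CPM in siNC libraries (SD, n = 3 each), and missed the threshold although its groups did not overlap (log2 fold change 0.11, edgeR adjusted p = 0.082).

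Of the other 8 PRPF genes 2 rose (25%) and 1 fell (12.5%), near the 15.9% and 17.6% of all tested genes. PRPF19, the ubiquitin ligase that gives the Prp19 complex its name, had 215, 236 and 225 CPM in siEIF4G2 libraries, against 176, 167 and 176 CPM in siNC libraries. The groups were apart and PRPF19 was higher in every siEIF4G2 library (log2 fold change 0.38, SE 0.05, edgeR adjusted p = 0.00295). PRPF38A, which joins before activation, was 1.19-fold higher at 82.1 ± 2.23 CPM in siEIF4G2 libraries and 69.0 ± 1.62 CPM in siNC libraries (SD, n = 3 each; edgeR adjusted p = 0.00871). It overlaps TUT4 on the opposite strand over 12555 bases.

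PRPF40B, a U1-associated protein and the lowest of the 47 genes, had 6.14, 5.26 and 6.48 CPM in siEIF4G2 libraries, against 6.84, 7.29 and 7.29 CPM in siNC libraries. The siEIF4G2 values were all lower, but PRPF40B did not pass (log2 fold change -0.26, edgeR adjusted p = 0.129), and 40.9% of its 50-base words are shared, mostly with FMNL3 on the opposite strand.

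PRPF4B, a spliceosomal kinase, and PRPF38B each had a log2 fold change of 0.26 with overlapping groups (edgeR adjusted p = 0.101 and 0.188). Without siEIF4G2 replicate 2, PRPF4B passed (edgeR adjusted p = 0.0351), as SF3B6 did without siNC replicate 1 (edgeR adjusted p = 0.0307). PRPF39, a U1-associated protein, and PRPF18, a factor of the second catalytic step, had log2 fold changes of 0.02 and -0.09 with overlapping groups. PRPF18 shares 41.0% of its 50-base words with other genes.

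LSM2 to LSM8 form the ring on the 3′ end of U6 RNA, and this was where the largest rises lay. Of these 7 genes 4 rose (57.1%, where 15.9% of all tested genes did) and 0 fell (where 17.6% did). Their median log2 fold change was 0.43. LSM7 (chr19:2321520-2328611, minus strand) had 28.4, 26.5 and 27.6 CPM in siEIF4G2 libraries, against 20.7, 18.5 and 19.6 CPM in siNC libraries. The groups were well apart, and LSM7 was 1.40-fold higher (log2 fold change 0.49, SE 0.07, edgeR adjusted p = 0.00378). LSM2 (chr6:31797396-31806966, minus strand) had 83.0, 84.6 and 81.6 CPM in siEIF4G2 libraries, against 61.6, 60.6 and 56.2 CPM in siNC libraries. Also without overlap, LSM2 was 1.40-fold higher (log2 fold change 0.48, SE 0.05, edgeR adjusted p = 0.00158). None of the 50-base words of LSM2 or LSM6 was shared with another gene.

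LSM6 had 10.2, 10.9 and 9.50 CPM in siEIF4G2 libraries, against 7.72, 7.99 and 6.64 CPM in siNC libraries. It was 1.37-fold higher without overlap (log2 fold change 0.45, SE 0.11, edgeR adjusted p = 0.0259). LSM5 had 37.9, 42.3 and 43.5 CPM in siEIF4G2 libraries, against 35.3, 29.7 and 26.8 CPM in siNC libraries. The nearest values of the groups were 37.9 and 35.3 CPM, and LSM5 was 1.35-fold higher (log2 fold change 0.43, SE 0.12, edgeR adjusted p = 0.0340). The LSM5 and LSM6 calls each held in 2 of 6 fits that left out a library, with lost values of 0.0734 to 0.0976 for LSM5 and 0.0601 to 0.0675 for LSM6 (edgeR adjusted p). LSM8, the subunit that makes the ring nuclear, and LSM3 had no overlap between groups and did not pass (LSM8 log2 fold change 0.19, edgeR adjusted p = 0.0545; LSM3 0.15, edgeR adjusted p = 0.0647). LSM4 had a log2 fold change of -0.14 (edgeR adjusted p = 0.514), with siEIF4G2 values of 108 to 136 CPM and siNC values of 107 to 147 CPM.

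LSM1 takes the place of LSM8 in the cytoplasmic ring that promotes decapping. It had 46.7, 56.7 and 56.5 CPM in siEIF4G2 libraries, against 59.9, 44.7 and 43.7 CPM in siNC libraries, and the groups overlapped (log2 fold change 0.11, edgeR adjusted p = 0.611). LSM10 and LSM11 replace SNRPD1 and SNRPD2 in the U7 snRNP, which cuts histone precursor mRNA, and did not pass, at log2 fold changes of -0.07 (edgeR adjusted p = 0.48) and -0.21 (edgeR adjusted p = 0.103). LSM14A and LSM14B are LSM-domain proteins of cytoplasmic mRNA granules. LSM14A had 82.2, 76.1 and 75.8 CPM in siEIF4G2 libraries, against 64.6, 55.7 and 62.2 CPM in siNC libraries. It was 1.28-fold higher with no overlap (log2 fold change 0.36, SE 0.07, edgeR adjusted p = 0.0122), while LSM14B stood at 49.8 ± 1.63 CPM in siEIF4G2 libraries and 50.0 ± 1.33 CPM in siNC libraries (SD, n = 3 each). LSM12, a further LSM-domain protein, had a log2 fold change of -0.17 (edgeR adjusted p = 0.348) and shares 20.7% of its 50-base words, mostly with the pseudogene LSM12P1.

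**Figure D4:**
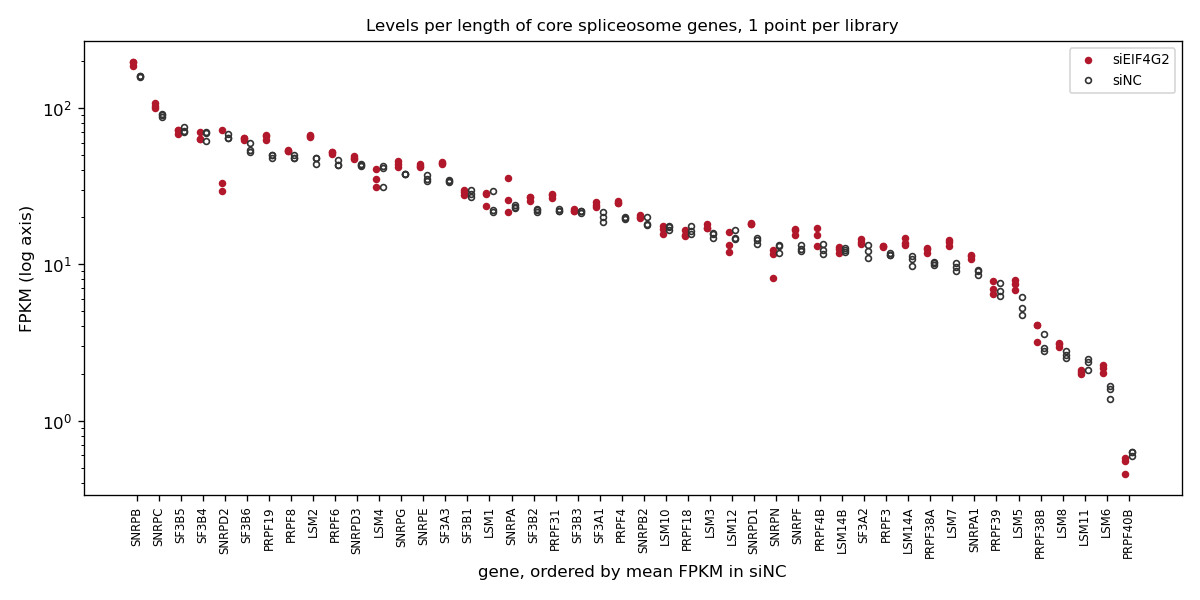
FPKM of 46 of the 47 genes (log y axis), ordered by the mean of siNC, with 1 filled red point per siEIF4G2 library and 1 open point per siNC library. SNRPB is highest, at a mean of 193 FPKM in siEIF4G2 and 159 FPKM in siNC, and PRPF40B lowest, at 0.526 and 0.619 FPKM in the same order of groups.

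Levels per length spanned a wide range. In siNC libraries 6 of the 47 genes had at least 50 FPKM, 31 had 10 to 50 FPKM and 10 had less. SNRPB, the core Sm protein, averaged 193 FPKM in siEIF4G2 libraries and 159 FPKM in siNC libraries, and SNRPC averaged 104 FPKM in siEIF4G2 libraries and 89.7 FPKM in siNC libraries. Within the U6 ring, LSM2 averaged 66.2 FPKM in siEIF4G2 libraries and 46.5 FPKM in siNC libraries, while LSM6 averaged 2.15 FPKM in siEIF4G2 libraries and 1.54 FPKM in siNC libraries.

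Genes that take the same place in related complexes, or are paralogs, were compared as 8 ratios of CPM within each library, a measure of how 1 gene changed relative to the other and not of their relative amounts. The smallest p that an exact two-sided permutation test of 3 against 3 libraries can give is 0.1, so no pair could pass. LSM10 over SNRPD1 was 0.267, 0.300 and 0.282 in siEIF4G2 libraries, against 0.384, 0.380 and 0.367 in siNC libraries. These did not overlap, with a difference of -0.42 on the log2 scale (exact p = 0.1, 0.2 adjusted over the 8 pairs). SNRPN over SNRPB was 0.159, 0.168 and 0.117 in siEIF4G2 libraries, against 0.222, 0.198 and 0.223 in siNC libraries, again without overlap (difference -0.55, exact p = 0.1). LSM14B over LSM14A was 0.626, 0.633 and 0.657 in siEIF4G2 libraries, against 0.754, 0.922 and 0.801 in siNC libraries (difference -0.37, exact p = 0.1). The groups overlapped for LSM1 over LSM8, LSM11 over SNRPD2, SNRPB2 over SNRPA and PRPF38B over PRPF38A, with exact p-values of 0.8, 0.4, 0.8 and 1.

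Other splicing genes and partners, 101 in all, were listed by the complex they belong to, and 100 were tested (CENATAC was not). Of these 29 rose (where 15.9% of all tested genes did) and 5 fell (where 17.6% did), with a median log2 fold change of 0.12. Of 7 SNRNP genes 3 rose (42.9%) and 1 fell (14.3%, near the 17.6% of all tested genes). SNRNP48, of the minor U11 snRNP, was higher at 102 ± 3.24 CPM in siEIF4G2 libraries and 72.2 ± 0.733 CPM in siNC libraries (SD, n = 3 each; log2 fold change 0.50, edgeR adjusted p = 0.000815). SNRNP27, a tri-snRNP protein, had 12.6, 12.1 and 12.1 CPM in siEIF4G2 libraries, against 24.8, 26.1 and 39.8 CPM in siNC libraries. All siEIF4G2 values were lower, and SNRNP27 was 2.47-fold lower (edgeR adjusted p = 0.00417), a larger change than that of any called gene of the 47.

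Of 10 other U5 and tri-snRNP genes 5 rose (50%, where 15.9% of all tested genes did) and 0 fell (where 17.6% did). Among those that rose were the cyclophilin PPIH (log2 fold change 0.49, edgeR adjusted p = 0.0023) and the helicase DDX23 (0.33, edgeR adjusted p = 0.00548). Of 12 genes that recruit or accompany U2, 5 rose (41.7%) and 0 fell, against the same shares of all tested genes. Those that rose include HTATSF1 (log2 fold change 0.38, edgeR adjusted p = 0.00122) and PHF5A, the small subunit of SF3B that the name rule does not take. PHF5A averaged 56.9 ± 3.92 CPM in siEIF4G2 libraries and 35.8 ± 2.09 CPM in siNC libraries (SD, n = 3 each) and was 1.59-fold higher (edgeR adjusted p = 0.00178), more than any SF3B gene of the 47.

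Of 26 genes of the Prp19 complex, its relatives and the catalytic steps, 5 rose (19.2%, near the 15.9% of all tested genes) and 1 fell, with CDC5L (log2 fold change 0.36, edgeR adjusted p = 0.00833) and CWC27 (0.48, edgeR adjusted p = 0.00914) leading by p. Of 18 genes listed under snRNP assembly and import 5 rose (27.8%, where 15.9% of all tested genes did) and 1 fell (5.56%, where 17.6% did). The 1 that fell was NAA38 (log2 fold change -0.28, edgeR adjusted p = 0.00895), a gene not known as an snRNP assembly factor. CLNS1A and PRMT5, which load and methylate Sm proteins, rose by log2 fold changes of 0.43 (edgeR adjusted p = 0.00211) and 0.28 (edgeR adjusted p = 0.00437). Of 6 exon junction complex genes 3 rose (50%, where 15.9% of all tested genes did) and 0 fell (where 17.6% did). RNPS1 rose by a log2 fold change of 0.50 and CASC3 by 0.57 (edgeR adjusted p = 0.00108 and 0.00378). Of 6 tested genes of the minor spliceosome 1 rose (16.7%, near the 15.9% of all tested genes) and 0 fell (where 17.6% did). The 1 that rose was ZCRB1 (log2 fold change 0.19, edgeR adjusted p = 0.0484, held in 1 of 6 fits that left out a library). DESeq2 called 3 of these 6 genes higher and 2 lower, as many as edgeR had at an unadjusted p under 0.05. By limma, 2 were higher and 1 lower.

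Among 8 partners of the LSM1 ring in mRNA decay, 2 rose and 2 fell (25% each, where 15.9% and 17.6% of all tested genes did). PATL1, which links the ring to decapping, and the decapping enhancer EDC3 rose (log2 fold change 0.34 with an edgeR adjusted p of 0.00189, and 0.31 with 0.0103). They are named as the 2 with the smallest p. The list as a whole did not rise: 3 log2 fold changes were positive and 5 negative, with a median of -0.07. Of 7 genes of histone mRNA processing 0 passed in either direction by edgeR or limma, DESeq2 called 1 higher, and edgeR had 1 higher at an unadjusted p under 0.05. The table's own KEGG spliceosome annotation adds 92 tested genes outside the 47, of which 31 rose (33.7%, where 15.9% of all tested genes did) and 5 fell (5.43%, where 17.6% did), with a median log2 fold change of 0.16. This set overlaps the lists above.

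**Figure D5:**
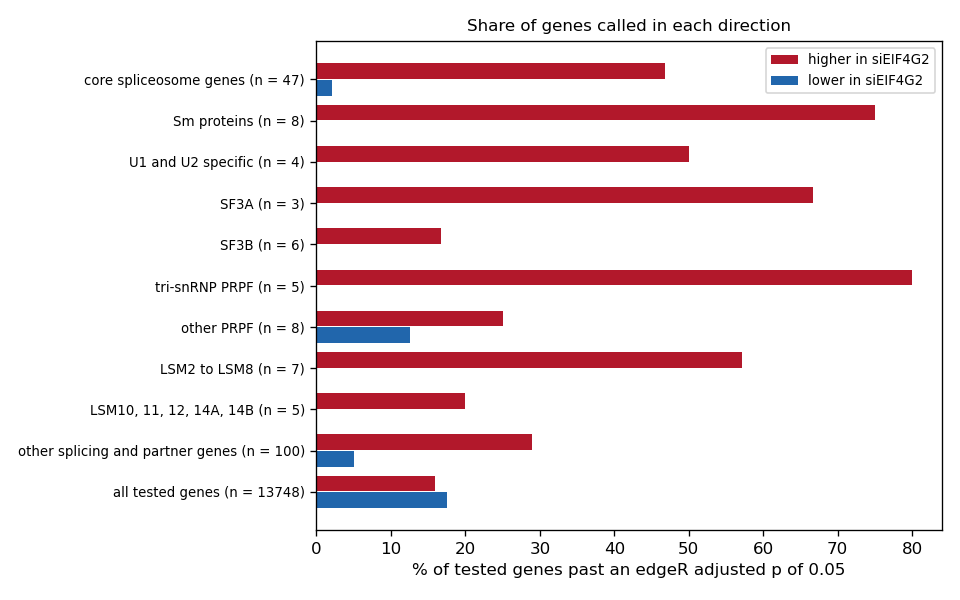
Share of tested genes past an edgeR adjusted p of 0.05 (x axis, percent), higher in siEIF4G2 in red and lower in blue, for the 47 core spliceosome genes, their roles, the 100 other splicing and partner genes, and all 13748 tested genes (n in the labels). The core genes reach 46.8% higher and 2.13% lower, and all tested genes 15.9% and 17.6%.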

How the data were processed

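The 6 libraries were grouped by sample title. Per the labels' protocols, Trizol RNA was poly(A)-selected for paired-end Illumina sequencing. The protocol text names an adipose type where other labels say liver. HISAT2 2.0 and StringTie 1.3.0 are named in the submitters' processing notes. For build, annotation and strand, no statement was given in the sources used. All 47 genes overlapped GENCODE 29 genes of the same identifier on GRCh38, 10 of them with the same ends.

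The authors deposited whole-number estimated counts and FPKM per gene. For 27 low single-transcript genes FPKM were rescaled to reads, and 25.9% lay within 0.1 of a whole read, so the counts were treated as rounded estimates. The design had named edgeR for counts. Of rows sharing a symbol the one with the highest mean FPKM was taken, and a gene was kept where 3 or more libraries reached 0.5 FPKM. edgeR 4.0.16 (R 4.3.3) fitted group alone by quasi-likelihood with TMM factors of 0.985 to 1.02. CPM use these factors. Tests are two-sided with Benjamini-Hochberg adjustment over 13748 genes. The common biological coefficient of variation was 19.4%. The edgeR step was also run on simulated counts with fewer changed genes than were called here, which is no test of the calls given above. Libraries were not paired by replicate number in this fit. Shared sequence was counted as 50-base words of GENCODE 29 transcripts. DESeq2 1.42.0 and limma 3.58.1 were alternatives.

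The genes, lists and strings were chosen with earlier results of these data known. Results that need certain genes, 1 of the 47 among them, are not reported here and were left out of the figures; counts over the group include them. The other genes of the 47 are all named. Values in each library are given for the 12 called genes with the largest change in each direction and the smallest p of each role, and of each other list the 2 called genes with the smallest p are named. SNRPD2, SNRPN, SNRPA, PRPF40B and LSM1 were given in full after their values were seen.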

Additional observations from a re-analysis of the deposited data

Results flagged for a closer look

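Of the rows named as pseudogenes of these genes, which are outside the comparisons above, 2 had counts that passed the test as higher in siEIF4G2 libraries. Only rows that passed the filter were tested. The others tested, LSM12P1, LSM3P3, SNRPA1P1, SNRPCP5, SNRPFP1, SNRPGP10, SNRPGP15 and SNRPGP2, were not called. Of all tested genes 15.9% were called higher, so 2 such calls do not set these rows apart. SNRPEP4 averaged 11.5 CPM in siEIF4G2 libraries and 8.55 CPM in siNC libraries (edgeR adjusted p = 0.014), a call that held in all 6 fits that left out a library. SNRPEP2 averaged 0.671 CPM in siEIF4G2 libraries and 0.296 CPM in siNC libraries (edgeR adjusted p = 0.030), on 15 to 64 counts a library, and its call held in 2 of 6 such fits (edgeR adjusted p of 0.034 to 0.0858). Their parent SNRPE shares 8.62% of its 50-base words with SNRPEP4, and reads of the 2 cannot be told apart there. Adding each gene's pseudogene rows to it, an alternative chosen after seeing the data, changed no call among the 47 genes.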

How the results depend on the processing

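The count of the 47 genes called higher was 22 with RLE factors, with rows of a symbol summed and with pseudogene rows added, 23 with upper-quartile factors, a minimum of 2 FPKM and DESeq2, 25 with library totals and limma at either pseudocount, and 15 without a filter. The count called lower was 1 in each of these. Leaving out each library gave 14 to 18 higher and 1 to 2 lower, and 3 to 5 lower among the other splicing genes. Of the other splicing genes, 3 were lower without a filter and 7 with a minimum of 2 FPKM, against 5 in the main fit. LSM14B changed sign with upper-quartile factors (0.0030), library totals (0.022), no filter (0.0013), summed rows (0.0012) and limma (0.020 and 0.022), all log2. Left-out libraries turned the sign of LSM14B (-0.025 to 0.019), PRPF39 (-0.047 to 0.10), SF3B1 (-0.021 to 0.053), SF3B3 (-0.026 to 0.026) and SNRPA (-0.017 to 0.37), none of them called; the cause was not tested. Deviations from the group means correlated at 0.00114 to 0.0498 for same-numbered libraries and at -0.0755 to 0.0433 for the others. With 3 libraries a group this cannot show whether the numbers pair them. The replicate block gave 16 higher and 1 lower of the 47. Among the other splicing genes it gave 23 and 4, and among all genes 1726 and 2010. Rises near 1.1-fold lie close to the threshold at 3 libraries a group. Intervals cover the spread between libraries.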
